A study of Mus musculus with 6 samples.

Results

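Lipid handling by microglia, the resident macrophages of the brain, was followed through 9 genes, Lpl, Apoe, Cd36, Abca1, Abcg1, Lrp1, Msr1, Fabp5 and Plin2, picked by symbol from the authors' deposited table of methamphetamine against saline. The table lists 23930 genes and holds 8 of the 9. Fabp5, a cytosolic fatty acid carrier, was not analysed here. The symbols were picked with the differences in this same comparison known, so their values are a description and are not tested again.

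The cells came from the brains of adult wild-type C57BL/6 mice after perfusion and were sorted as CD11b-positive, CD45-low and CD206-negative. The 3 mice of the Saline group received 4 injections of saline, 2 h apart. The 3 mice of the Meth group received methamphetamine, which drives monoamine release, at 5 mg/kg per injection and on the same schedule. RNA was read with an amplicon panel that amplifies a short stretch of each gene with its own primer pair, starting from 1 ng of total RNA, and the values were deposited as 1 average per group on a log2 scale. The authors' p-values are the single trace of the spread between mice. No value per mouse was at hand, so no error, depth or interval can be given for an average, and whether the 3 mice of a group were alike cannot be told. In bulk samples such as these, fewer cells of a type and less RNA per cell cannot be told apart.

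Microglia take up lipid from lipoproteins, myelin debris and dying cells. Lipoprotein lipase (Lpl) frees fatty acids from triglycerides, and apolipoprotein E (Apoe) carries lipid between brain cells and binds lipoprotein receptors such as Lrp1. Msr1 and Cd36 are scavenger receptors, Plin2 coats the droplets in which surplus lipid is stored, and Abca1 and Abcg1 pass cholesterol out of the cell to lipoproteins. In mouse microglia Lpl and Apoe are known as genes of the state described around amyloid plaques and in demyelination, and Abca1, Abcg1 and Apoe are known targets of the liver X receptors (LXR), which sense oxidised cholesterol. Plin2 and Cd36 are known targets of the fatty acid sensing PPAR receptors.

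The 250 bases upstream of the start site are shown for 3 of these genes: Abca1, the efflux pump controlled by LXR, Plin2, the droplet protein controlled by PPAR, and Apoe. Sequence outside this stretch, where regulators can also bind, was not searched. They are given 5′ to 3′ on the minus strand of GRCm38.p6, from RefSeq, at chr4:53159896-53160145 for Abca1, chr4:86670060-86670309 for Plin2 and chr7:19699189-19699438 for Apoe, whose most upstream of 3 listed start sites was used. Capitals mark letters that match, on either strand, one of the motifs named after the sequences, apart from the GC box.
Abca1: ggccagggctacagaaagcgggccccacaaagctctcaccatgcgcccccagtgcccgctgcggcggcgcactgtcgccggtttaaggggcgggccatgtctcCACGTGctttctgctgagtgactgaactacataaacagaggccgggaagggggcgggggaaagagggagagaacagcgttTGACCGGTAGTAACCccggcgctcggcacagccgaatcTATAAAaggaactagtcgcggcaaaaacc
Plin2: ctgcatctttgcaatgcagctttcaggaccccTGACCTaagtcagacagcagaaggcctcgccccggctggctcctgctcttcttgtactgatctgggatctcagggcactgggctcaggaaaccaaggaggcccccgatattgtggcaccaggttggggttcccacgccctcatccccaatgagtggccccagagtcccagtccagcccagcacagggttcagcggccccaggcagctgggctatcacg
Apoe: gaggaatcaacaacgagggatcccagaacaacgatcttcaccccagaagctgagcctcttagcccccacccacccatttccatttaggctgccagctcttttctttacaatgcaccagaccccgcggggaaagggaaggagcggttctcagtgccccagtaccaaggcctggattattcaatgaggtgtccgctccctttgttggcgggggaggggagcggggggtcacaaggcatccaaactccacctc

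Abca1 held a match to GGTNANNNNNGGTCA, a relaxed form of the repeated hexamer with a spacer of 4 bases that LXR binds, at positions -67 to -53 from the start site, and 0.177% of the 32851 RefSeq windows of this length held one. No window of the other members did. The single nuclear receptor hexamer AGGTCA, present in 14.0% of all windows, was found in Plin2 at -218 to -213 and in Cd36 at -228 to -223. The relaxed repeat with a spacer of 1 base that PPAR binds, GGTNANNGGTCA, occurred in 0.356% of all windows and in none of the member windows. A motif missing from a window may still lie elsewhere at the gene. Abca1 also held the E-box CACGTG at -147 to -142 (6.02% of all windows) and the TATA box TATAAA at -29 to -24 (12.4%), and GC boxes (GGGCGG, 32.7%) lay in Abca1, Cd36 and Lrp1. The Apoe sequence shown held none of the 6 motifs, while a window further downstream at a later Apoe start site held TATAAA. A match to either repeat can overlap a match to the hexamer. RefSeq windows were at hand for 5 of the 9 members, and Lpl, Abcg1, Msr1 and Fabp5 are named only.

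Of the 8 members, 7 had a higher average in Meth and 1, Abcg1, a lower one, with a median difference of 0.77 on the log2 scale, taken as Meth minus Saline, per the authors' deposited table. The median was 0.00 over all 23930 genes and 0.02 over the 10375 genes that reached 1 on that scale in Meth or Saline, of which 50.7% were higher in Meth. No member passed the authors' adjusted p (FDR) of 0.05, which 2.24% of all genes did, and at 0.10 it was passed by Lpl and by 2.58% of all genes. With the authors' p-values adjusted over only the 10375 genes at 1 or above, Lpl had 0.262 and did not pass 0.10. Of the 536 genes under 0.05, 293 lie near 0 and carry the same averages and p-value, and 1.03% of the genes without these passed. An unadjusted p under 0.05 was listed for 3 members, Lpl, Cd36 and Plin2, all higher in Meth, against 10.1% of all genes (6.38% higher and 3.76% lower) and 14.7% of those at 1 or above. The 293 genes all count among the higher ones, and without them the share of all genes was 9.02%. Because the members were picked on this comparison, nothing is read from these counts.

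**Figure D1:**
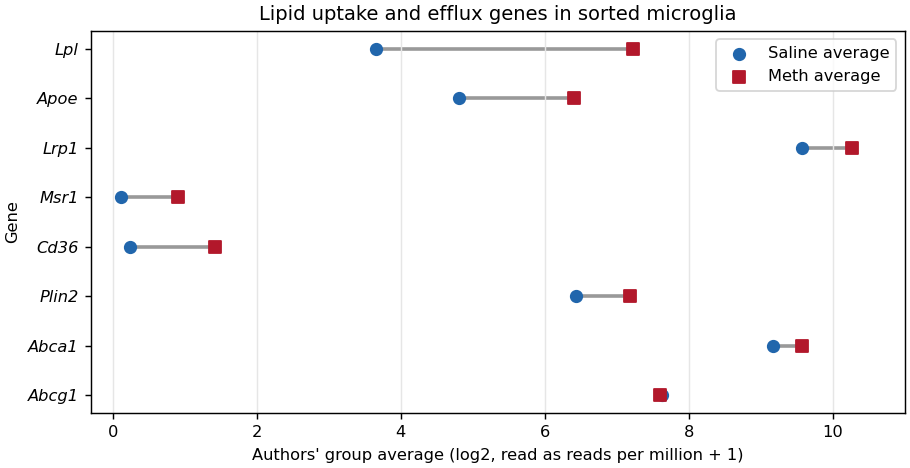
Authors' group averages of the 8 members (horizontal axis, log2 scale), with a circle for Saline, a square for Meth and a line for their difference. The line is longest for Lpl, from 3.66 to 7.23, and the symbols of Abcg1 nearly coincide at 7.63 and 7.60.

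Lpl, the lipase, averaged 7.23 in Meth against 3.66 in Saline on the log2 scale, 11.88-fold apart per the authors' deposited table, with an unadjusted p of 0.0023 and an adjusted p of 0.0913. Read back as RPM (reads per 1000000 reads), that is 149 in Meth and 11.6 in Saline. Its place among all genes went with it: 70.5% of genes had a lower average than Lpl in Saline and 94.9% in Meth. The Lpl difference of 3.57 was the largest in either direction among the 23930 genes. The next in size per the authors' deposited table were Cct8, a chaperonin subunit, with -3.38 (unadjusted p = 0.1537), and the transcription factor Pou2f1 with -3.22 (unadjusted p = 0.0898). Among genes higher in Meth, Snhg1, a host gene of small nucleolar RNAs, followed at 3.10 per the authors' deposited table (unadjusted p = 0.0657).

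Apoe, the lipid carrier, averaged 6.41 in Meth against 4.81 in Saline per the authors' deposited table, or 3.03-fold. This corresponds to 84.0 and 27.1 RPM. With an unadjusted p of 0.1014 and an adjusted p of 0.6022 per the authors' deposited table, the difference did not pass the threshold, although Apoe ranked at 93 of the 10375 genes by the size of the difference in that direction. The Apoe and Lpl averages lay in opposite order in the groups: Apoe above Lpl in Saline and below it in Meth. Since each gene has its own primer pair, that order is one of reads and not of transcript numbers.

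**Figure D2:**
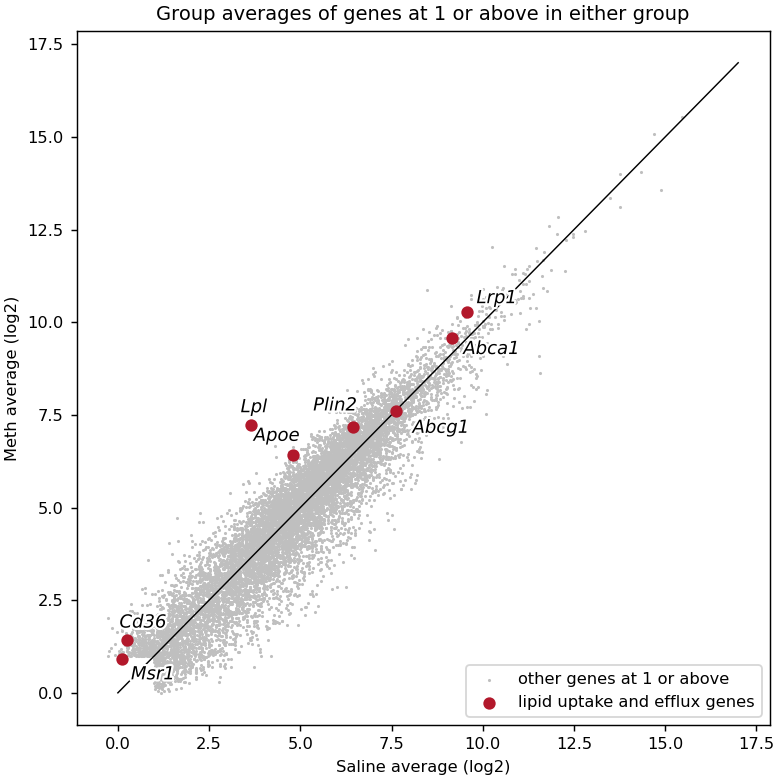
Saline average (horizontal axis, log2) against Meth average (vertical axis, log2) of the 10375 genes at 1 or above in either group (grey), with the 8 members in red and the line of equality. Lpl lies farthest from the line, Apoe lies above it, and Abcg1 lies on it; Msr1, at 0.90 in Meth, is drawn although it does not reach 1.

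Among the receptors of the set, Lrp1, the endocytic receptor that takes up Apoe-bearing lipoproteins, was the member with the most reads, averaging 10.27 in Meth and 9.58 in Saline per the authors' deposited table, or 1.61-fold (unadjusted p = 0.1504). The scavenger receptor and fatty acid transporter Cd36 stood at 1.42 against 0.24 per the authors' deposited table, with an unadjusted p of 0.0027 and an adjusted p of 0.1019. Its level was thus near the bottom of the scale in both groups, at 1.68 and 0.181 RPM. Msr1, the class A scavenger receptor for modified LDL, stood at 0.90 against 0.11 per the authors' deposited table (unadjusted p = 0.1418) and was the single member under 1 in both groups. For low genes the size of a difference depends on the constant added before the logarithm. With 0.1 in place of 1, the log2 difference became 2.66 in place of 1.18 for Cd36 and 2.43 in place of 0.79 for Msr1, both then above the 1.63 of Apoe.

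The droplet coat protein Plin2 had an average of 7.18 in Meth and 6.44 in Saline per the authors' deposited table, or 1.67-fold, with an unadjusted p of 0.0257 and an adjusted p of 0.3863. In RPM these are 144 and 85.8. The efflux pumps differed least. Abca1, which loads cholesterol on lipid-poor apolipoproteins, stood at 9.58 against 9.17 per the authors' deposited table, 1.33-fold (unadjusted p = 0.3441). Its partner Abcg1, which loads more mature particles, stood at 7.60 against 7.63 per the authors' deposited table (unadjusted p = 0.6093). The uptake genes Lpl, Cd36, Msr1 and Lrp1 thus had differences from 0.69 to 3.57, and the pumps -0.03 and 0.41. These members were picked with their differences known, and Cd36 and Msr1 were low in both groups. In the wider lists described below, the median difference was -0.07 for fatty acid uptake and binding and -0.13 for lipoprotein receptors. It was 0.10 for scavenger receptors and 0.05 for sterol efflux. Whether uptake and efflux genes differ from each other was not tested.

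The genes with group averages most like those of Lpl, by distance over the 2 averages, were Clec2d at a distance of 0.66, Pfdn5 at 0.86 and Trpc4ap at 1.08 on the log2 scale. Per the authors' deposited table Clec2d, a lectin of the natural killer receptor complex, stood at 6.87 against 4.21. Its unadjusted p of 0.0930 per the authors' deposited table is larger than that of Lpl. Apoe had closer neighbours by the same measure, Zfyve19 (0.04), Nt5c3b (0.07) and Mink1 (0.16). All 3 were higher in Meth per the authors' deposited table, by 1.54, 1.52 and 1.82. With only a pair of values per gene, such a likeness says no more than that the averages are close.

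Around the members, 9 lists of lipid genes with 162 entries, 152 of them in the table, gave the wider pathway. Of these 152, 64 were higher in Meth, 69 lower and 19 equal, with a median log2 difference of 0.00 per the authors' deposited table. An unadjusted p under 0.05 was listed for 9 higher and 7 lower genes, 10.5% of the 152 against 10.1% of all genes, and each p given for a list gene is this unadjusted one. An adjusted p under 0.05 was listed for 2, the scavenger receptors Colec12 and Stab2. Both stood at 0.07 in Meth and -0.03 in Saline per the authors' deposited table, with the same p of 6.67e-06, and 293 genes of the table carry exactly these averages and this p.

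**Figure D3:**
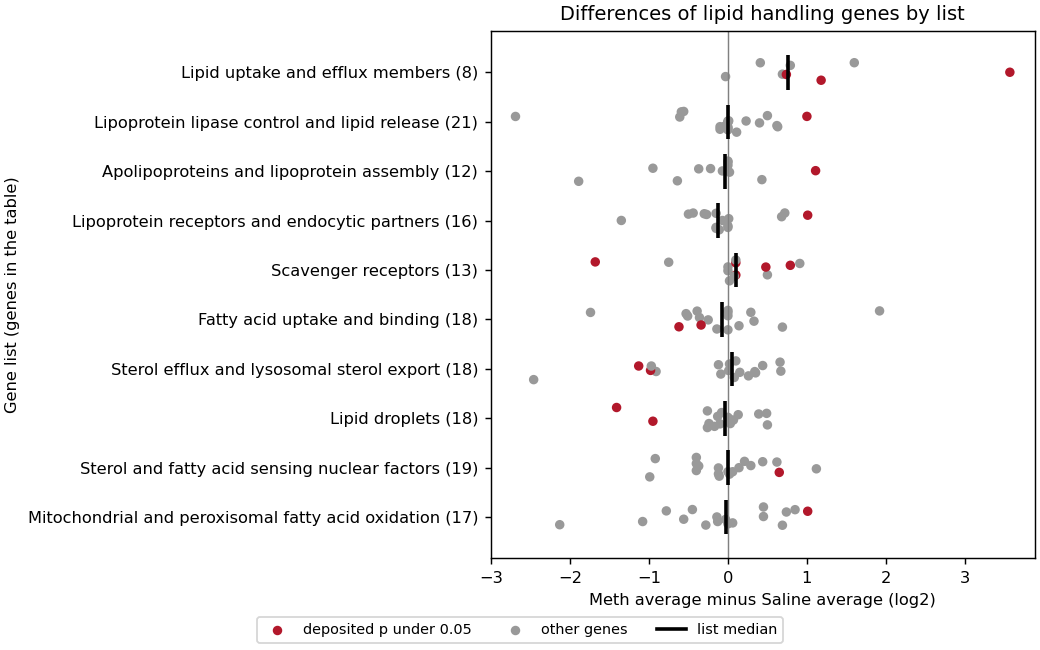
Meth minus Saline difference of the log2 averages (horizontal axis) for the 8 members and for each gene of the 9 lists, in rows, with the number of genes in the table in brackets. Red points have a deposited p under 0.05 and black bars are list medians, which lie between -0.13 and 0.10 for the 9 lists and at 0.77 for the members.

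Of the 21 genes of lipase control and lipid release in the table, 8 were higher and 8 lower, with a median of 0.00. Angptl4, a secreted inhibitor of Lpl and a known PPAR target, was the single one with an unadjusted p under 0.05, at 1.08 against 0.08 per the authors' deposited table (p = 0.0333). Lmf1, which Lpl needs to mature in the endoplasmic reticulum, stood at 3.98 against 3.36 per the authors' deposited table (p = 0.3431), and its partner Sel1l at 8.75 against 8.79. Gpihbp1, which holds Lpl on capillary endothelium, was near 0 per the authors' deposited table (0.12 and 0.11). Of the lipases that act inside the cell, Lipa, the lysosomal acid lipase, stood at 3.71 against 6.40 per the authors' deposited table (p = 0.0856), and Pnpla2, the droplet triglyceride lipase, at 5.80 against 6.39 (p = 0.3321). Mgll, which splits monoglycerides, stood at 4.02 against 3.39 per the authors' deposited table (p = 0.5376).

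Of the 12 other apolipoprotein and particle assembly genes, 3 were higher and 6 lower, with a median of -0.03. Lcat, the plasma enzyme that esterifies cholesterol on particles, had 1.98 in Meth against 0.87 in Saline per the authors' deposited table (p = 0.0215). Clu, the other abundant brain apolipoprotein, stood at 3.22 against 5.11 per the authors' deposited table (p = 0.4970), opposite in direction to Apoe. Of 16 further lipoprotein receptor genes and their partners, 4 were higher and 10 lower, with a median of -0.13. Lrp8, a receptor for Apoe and reelin, was the one at an unadjusted p under 0.05, with 1.42 against 0.41 per the authors' deposited table (p = 0.0087). Lrpap1, the chaperone that keeps Lrp1 from binding ligand too early, stood at 7.55 against 6.87 per the authors' deposited table (p = 0.1781).

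Scavenger receptors had the most listed p-values under 0.05, 4 higher and 1 lower of 13, or 38.5% against 10.1% of all genes, with a median of 0.10. The 4 higher ones include Colec12 and Stab2, which carry the averages and p shared by 293 genes near 0, and the other 2 are Stab1 and Cxcl16. Stab1, a clearance receptor for modified LDL, stood at 9.94 against 9.15 per the authors' deposited table (p = 0.0490). Cxcl16, which in its membrane form binds oxidised LDL and phosphatidylserine, stood at 7.39 against 6.91 per the authors' deposited table (p = 0.0355). The lower one was Scarb2, a lysosomal membrane protein that carries glucocerebrosidase, at 5.75 against 7.43 per the authors' deposited table (p = 0.0297).

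Of 18 fatty acid uptake and binding genes beyond the members, 5 were higher and 9 lower, with a median of -0.07. Acsl3, an acyl-CoA synthetase of nascent lipid droplets, stood at 2.55 against 2.89 per the authors' deposited table (p = 0.0057). Cav1, the caveolar coat protein, stood at 1.43 against 2.05 per the authors' deposited table (p = 0.0138). Of 18 lipid droplet genes, 8 were higher and 9 lower, with a median of -0.04. Plin4, a relative of Plin2, had 1.07 in Meth against 2.48 in Saline per the authors' deposited table (p = 0.0484), the opposite direction to Plin2. Plin3, which coats small droplets, stood at 4.76 against 4.26 per the authors' deposited table (p = 0.3665). Spast, a microtubule-severing enzyme that also sits on droplets, stood at 4.59 against 5.54 per the authors' deposited table (p = 0.0423).

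Sterol efflux and storage genes numbered 11 higher and 7 lower of 18, with a median of 0.05. Soat1, which esterifies cholesterol for storage, stood at 5.78 against 6.76 per the authors' deposited table (p = 0.0272). Abcb4, a phospholipid transporter, stood at 4.19 against 5.32 per the authors' deposited table (p = 0.0358). The lysosomal sterol exporter Npc1 stood at 7.85 against 8.76 per the authors' deposited table (p = 0.1670), and its soluble partner Npc2 at 10.35 against 10.33. Of 17 fatty acid oxidation genes, 7 were higher and 9 lower, with a median of -0.03. Acadvl, the mitochondrial dehydrogenase for very long chains, stood at 6.78 against 5.77 per the authors' deposited table (p = 0.0085). Acadm, its medium-chain relative, stood at 4.03 against 6.16 per the authors' deposited table (p = 0.1089).

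**Figure D4:**
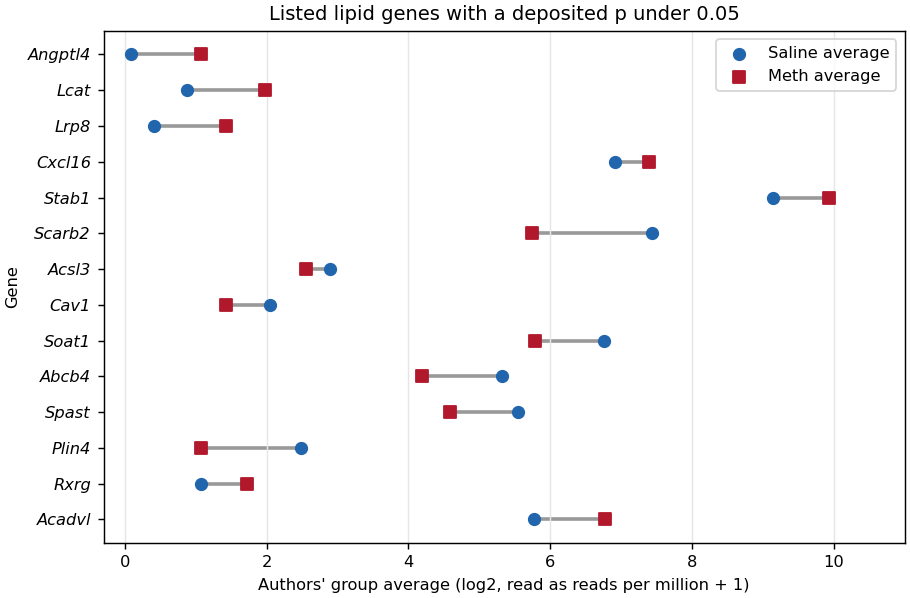
Authors' group averages (horizontal axis, log2) of the 14 listed lipid genes with a deposited p under 0.05 and an average of at least 1 in either group, with a circle for Saline and a square for Meth. Scarb2 has the longest line, from 7.43 in Saline to 5.75 in Meth.

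Of 19 sterol and fatty acid sensing factors, 9 were higher and 9 lower, with a median of 0.00. Nr1h2, the LXR form present in most tissues, stood at 5.77 against 4.65 per the authors' deposited table (p = 0.0991), while the macrophage form Nr1h3 was low at 0.44 against 0.84 (p = 0.3447). Rxrg, a partner of both receptor classes, was the one at an unadjusted p under 0.05, with 1.72 against 1.07 per the authors' deposited table (p = 0.0029). Further known LXR targets, chosen for their role with their values known, stood at 8.74 against 8.85 (Mylip, a ubiquitin ligase, p = 0.4122) and 5.52 against 5.23 (Srebf1, p = 0.3043) per the authors' deposited table. Their differences of -0.11 and 0.29 stand beside 0.41 for Abca1, -0.03 for Abcg1 and 1.60 for Apoe among the LXR targets. Of the known PPAR targets, the differences were 1.18 for Cd36, 1.00 for Angptl4 and 0.74 for Plin2, while the mitochondrial carnitine enzyme Cpt1a stood at 5.48 against 5.76 per the authors' deposited table (p = 0.3313) and Pdk4 at 0.02 in both groups. Ppard, the PPAR form found in most tissues, stood at 6.46 against 6.40 per the authors' deposited table (p = 0.7942).

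Markers of microglia were present, with Csf1r at 12.23 in Meth and 12.29 in Saline and Tmem119 at 10.85 and 11.75 per the authors' deposited table. Of the 7 microglia markers, 1 was higher in Meth, 5 lower and 1 equal, and they summed to 22600 RPM in Meth and 42900 in Saline. Other brain cells also make some of the members: astrocytes make Apoe, and oligodendrocyte precursors make Lpl. Astrocyte markers were higher in Meth for 3 of 6 and summed to 48.6 RPM in Meth and 141 in Saline, of which Slc1a3, a glutamate transporter, held 36.0 and 129 RPM. The other 5 astrocyte markers summed to 12.6 and 11.9 RPM. The 5 precursor markers summed to 0.913 and 0.581 RPM, and Olig2 and Lhfpl3 were at 0 in both groups. Macrophages of the brain borders and blood monocytes can carry Msr1, Cd36 and Apoe, and the gate on low CD45 and no CD206 is meant to leave them out. Of 6 border macrophage markers, 2 were higher, 2 lower and 2 (Lyve1 and Ms4a7) at 0 in both groups, with sums of 27.2 and 21.1 RPM. Mrc1, the CD206 gene, held 26.9 and 20.7 RPM of these sums, and the other 5 markers 0.301 and 0.425. All 5 monocyte and neutrophil markers were lower in Meth, with sums of 2.31 and 6.61. Oligodendrocyte markers, a possible sign of myelin, were higher for 4 of 5 (57.8 against 27.8 RPM). Endothelial markers were higher for 2 of 5 and lower for 3 (78.0 against 97.9). Pecam1 held 75.1 and 85.8 RPM of these sums, and Cdh5 stood at 1.31 against 3.11 per the authors' deposited table (unadjusted p = 0.0231). Neuronal markers were higher for 1 of 4, lower for 2 and equal for 1 (4.33 against 4.18). Per the authors' deposited table Stmn2 stood at 1.97 against 0.92 (unadjusted p = 0.0014) and Snap25 at 0.71 against 1.70 (unadjusted p = 0.2084). The part of such cells in the member differences was not tested.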

How the data were processed

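All values come from 1 table that the authors deposited for Meth against Saline. Per the file headers it holds 1 log2 average per group, a signed fold change (a ratio of Meth over Saline, negative where Saline is higher), a p-value and an FDR adjusted p-value per gene. How reads were aligned, counted, normalized and modelled is not given in the sources used here. Per the labels' protocols, libraries came from an amplicon panel amplified for 16 cycles. The back-transformed averages sum to 981392 (Meth) and 1012049 (Saline), so the scale is read from the values as log2 of RPM plus 1. Saline averages below 0 occur for 1425 genes and Meth averages below 0 for 14, which plain means on that scale cannot give.

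Depth per library is unknown. Differences are Meth minus Saline averages. No test was run here, and every p is the authors', apart from adjustments of those p-values over fewer genes. The largest gap between the deposited FDR and a Benjamini-Hochberg adjustment made here was 0.00232. That adjustment was tested on simulated p-values, and the motif search on short made-up sequences. Members and lists were chosen with earlier results of these data known. List genes were named where p lay under 0.05 with an average of at least 1, up to 3 per list and direction. Others were named for their role with their values known. Gpat3 was matched by its older symbol. Python 3.11.15, pandas 2.3.3 and matplotlib 3.10.9 were used. A gene of the lists is not reported here by name.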

Additional observations from a re-analysis of the deposited data

How the results depend on the processing

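No paired analysis was possible because the table holds group averages and no column per mouse, and for the same reason no mouse could be left out in turn. Of the 8 members, 0 passed the deposited FDR of 0.05, and 0 passed when the deposited p-values were adjusted over the 10375 genes at 1 or above or the 8253 at 3 or above. The count was 1 (Lpl) at a deposited FDR under 0.10 and 3 at an unadjusted p under 0.05. Lpl did not hold at 0.10 in the restricted adjustments, with 0.262 over genes at 1 or above and 0.255 over those at 3 or above. For the 152 genes of the lipid lists, with alternatives chosen after seeing the data, 2 passed as deposited, 0 with either restricted adjustment and 16 at an unadjusted p under 0.05. The 2, Colec12 and Stab2, lie under both floors and were left out of the restricted adjustments, so their loss was fixed by the filter. The members' median difference was 0.77, lay between 0.72 and 0.76 from the deposited folds, after centring or over members at 3 or above, and was 1.19 with 0.1 added in place of 1. Of 24 alternative values for single members, 21 stayed within 1.5 times the reported one and none changed sign. The others were Cd36 (2.66) and Msr1 (2.43) with 0.1 added, and Abcg1 after centring (-0.05). The deposited folds restate the same averages (largest gap 0.0166), and centring takes 0.02 off every gene. Those settings could shift a value or the median only by little, so their closeness says nothing of robustness. The added constant can change a size but not a sign. Without depth or spread, no smallest detectable difference can be given.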

Other observations

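Among the 16 protein-coding genes that sit next to the members on their chromosomes in the RefSeq annotation, 8 were higher in Meth and 3 lower. The rest were equal, at or near 0 in both groups. The differences of the 16 had a median of 0.04 on the log2 scale and a range from -0.25 to 0.71. Of the 16, 1 had an unadjusted p under 0.05, which 10.1% of all genes had. That one was Tusc3, an oligosaccharyltransferase subunit beside Msr1, at 5.87 against 5.37 per the authors' deposited table (p = 0.0170). Beside Lpl on chromosome 8, the Integrator subunit Ints10 stood at 5.95 against 5.60 per the authors' deposited table (p = 0.0923), and Slc18a1, a vesicular monoamine transporter, at 0.02 in both groups. Apoe lies in a cluster of apolipoprotein genes on chromosome 7, where Apoc1 stood at 0.25 against 0.47 and Apoc4 at 0 in both groups per the authors' deposited table. On its other side Tomm40, the channel of the mitochondrial import pore, stood at 5.36 against 4.65 per the authors' deposited table (p = 0.1218).

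Fatty acid transporters outside the members held the largest higher difference of the lipid lists, Slc27a3, an acyl-CoA synthetase of the transporter family, at 3.94 against 2.02 per the authors' deposited table (p = 0.0621). The largest lower one was Lipa (-2.69), followed by Abca9, a transporter of the Abca1 family, at 5.67 against 8.13 per the authors' deposited table (p = 0.0696). These genes were singled out after their values were seen.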
